A study of Homo sapiens with 8 samples.

Results

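The insulin-like growth factor (IGF) axis was examined through 9 genes of LX-2 cells: the binding protein genes IGFBP2, IGFBP3, IGFBP4, IGFBP5, IGFBP6 and IGFBP7, the ligand gene IGF2 and the receptor genes IGF1R and IGF2R. They were chosen by gene family, with earlier results of these data known, among them the level of IGFBP3 on the stiff matrix at 4 days. Every comparison of IGFBP3 that uses this level is therefore given as a description with no test. All 9 were among the 25369 genes of the count table. Of these 9, 8 were among the 14570 genes with enough counts to be tested, and IGF2 was not.

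RNA sequencing was done on LX-2, an immortalized human hepatic stellate cell line of wild type genotype, so that all libraries come from 1 line. The cells were grown in medium with serum on polyacrylamide hydrogels of 2 kPa, called the soft matrix, or of 40 kPa, called the stiff matrix, which stand for healthy and cirrhotic liver. They were collected after 2 or 4 days, with 2 libraries in each of the 4 conditions and 8 in all. The methods call replicates of sequencing experiments biological, and p-values here measure the spread between such pairs. In bulk RNA, fewer cells that express a gene and less of its RNA per cell cannot be told apart.

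IGF1 and IGF2 signal through the receptor tyrosine kinase encoded by IGF1R, which acts on the PI3K-AKT and RAS-ERK pathways. The receptor encoded by IGF2R has no kinase and carries IGF2 and mannose 6-phosphate proteins to lysosomes. The IGF binding proteins are secreted, hold the ligands away from the receptor or present them to it, and are cut by proteases such as PAPPA. In liver, hepatocytes are the main source of circulating IGF1, and activated stellate cells secrete several of the binding proteins.

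The cell type label was checked against marker genes. Some transcripts of activated stellate cells or myofibroblasts were abundant, with VIM between 921 and 2938 FPKM (fragments per kilobase of gene length, scaled to library size), TAGLN between 218 and 601 and COL1A1 between 83.9 and 172. Other markers of these cells were low, with ACTA2 at 4.32 to 10.3 FPKM, PDGFRB at 1.88 to 4.31 and COL3A1 at 0.962 to 7.30. LRAT, which marks quiescent stellate cells, and DES, another stellate cell marker, had at most 1 and 2 counts in any library. COL1A2 stayed under 0.735 FPKM. The hepatocyte genes ALB and TTR, the macrophage gene CD163, the endothelial gene PECAM1 and the epithelial gene EPCAM had at most 8 counts in any library. Among the listed markers of other cells, SERPINA1, CD14, KRT7 and SOX9 were above 1 FPKM, at 1.18 to 13.9 FPKM, and every other one stayed under 0.475 FPKM.

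Totals lay between 19955975 and 27263935 counts per library. The stiff libraries of 4 days stood apart from each other: 14.3% of the tested genes differed more than 2-fold between them, against 1.09% to 3.77% in the other pairs. Across genes, the difference of replicate 2 from replicate 1 in this pair ran against gene length (Spearman's rho = -0.56 over 14570 genes, which are not independent replicates), while rho was 0.47 in the soft pair of 4 days, 0.19 in the soft pair of 2 days and -0.04 in the stiff pair of 2 days. The members followed the same division. In the stiff pair, IGFBP2, IGFBP3, IGFBP4, IGFBP6 and IGFBP7, whose lengths implied by the deposited values were 966 to 2631 bases, were higher in replicate 2. IGFBP5, IGF2R and IGF1R, of 6239 to 12235 bases, were lower in it. For the members, 4-day differences on the stiff matrix are given with and without each of these libraries, except for IGFBP2, whose ranges stand with the processing alternatives. For other genes they were not recomputed without them. Each such fit leaves 1 stiff library of 4 days, so it gives the log2 fold change only. The part of the difference between these libraries in the results was not tested.

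**Figure D1:**
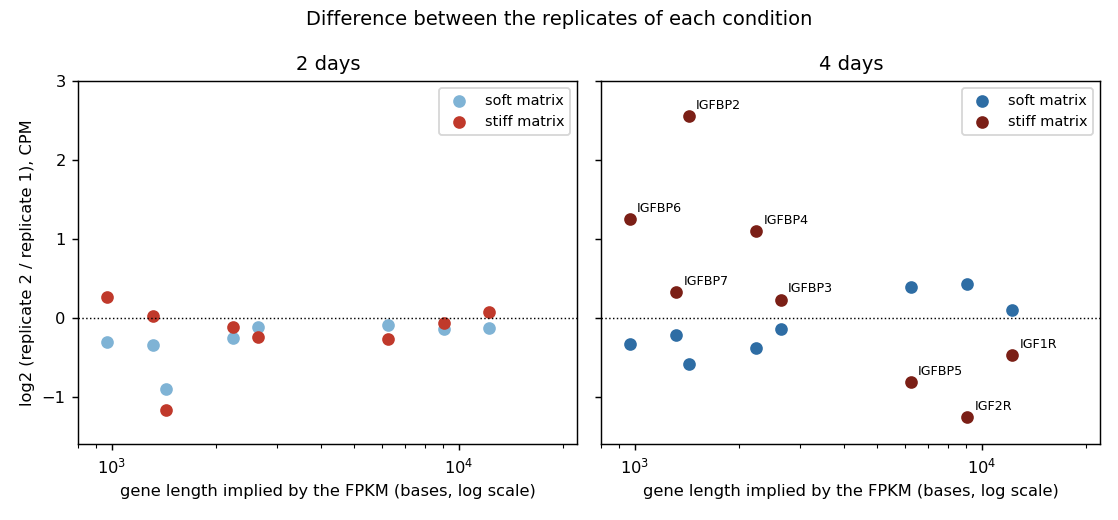
Log2 ratio of replicate 2 to replicate 1 in CPM (counts relative to the library total, y axis) against the gene length in bases implied by the FPKM (x axis, log scale), at 2 days on the left and 4 days on the right. Each point is 1 of the 8 tested members on the soft (blue) or stiff (red) matrix. In the stiff pair of 4 days IGFBP5, IGF2R and IGF1R lie under 0 and the 5 shorter members above it.

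The sequences just upstream of IGFBP3 and IGFBP5 are shown because these were the members whose RNA rose with time in culture, and that of IGFBP4 because it was the most abundant member and did not pass the test. They are the 250 bases before the start of transcription in RefSeq (GRCh38.p14), each 5′ to 3′ on the gene's own strand. Capitals mark a GC box with the letters GGGCGG, the TATA box with the letters TATAAA or a TEAD core with the letters GGAATG, searched on each strand.
IGFBP3, chr7:45921273-45921522, reverse strand: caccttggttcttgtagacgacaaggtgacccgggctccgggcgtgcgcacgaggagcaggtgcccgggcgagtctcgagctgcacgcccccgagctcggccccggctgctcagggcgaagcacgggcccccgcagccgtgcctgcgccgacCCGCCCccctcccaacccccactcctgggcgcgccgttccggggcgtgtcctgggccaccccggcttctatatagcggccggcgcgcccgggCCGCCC
IGFBP5, chr2:216695550-216695799, reverse strand: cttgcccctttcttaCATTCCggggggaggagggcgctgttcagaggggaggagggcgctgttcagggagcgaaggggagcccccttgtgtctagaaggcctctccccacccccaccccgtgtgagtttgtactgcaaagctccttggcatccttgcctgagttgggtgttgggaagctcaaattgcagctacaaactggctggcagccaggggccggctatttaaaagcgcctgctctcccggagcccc
IGFBP4, chr17:40443200-40443449, forward strand: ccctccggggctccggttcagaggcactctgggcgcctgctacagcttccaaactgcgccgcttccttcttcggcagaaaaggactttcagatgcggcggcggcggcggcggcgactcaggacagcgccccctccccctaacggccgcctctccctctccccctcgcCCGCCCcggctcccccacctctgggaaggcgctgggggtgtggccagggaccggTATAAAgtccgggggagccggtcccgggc

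The stretch before IGFBP3 is rich in G and C (76% of its bases, with 32 CpG) and holds 2 GC boxes, whose first bases lie 98 and 6 bases before the start. That before IGFBP5 has 61.2% G and C, 8 CpG, no GC box and 1 TEAD core 235 bases before the start. That before IGFBP4 has 71.6% G and C, with a TATA box 29 bases and a GC box 83 bases before the start. For comparison, the median G and C content of all 35116 upstream stretches of this length was 58%. A GC box was held by 42.64% of these stretches, a TATA box by 10.72% and a TEAD core by 11.89%. The AP-1 site TGACTCA, held by 4.203% of all stretches on either strand, was found in none of those of the 7 members with an entry. IGFBP7 and IGF2 had no entry. These matches are letters in a window and not measured sites. The motifs searched do not overlap each other in these 3 stretches.

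The binding proteins differed widely in level. Levels are given on the FPKM scale, which is per length. The mean over the 8 libraries was 220.1 for IGFBP4, 124 for IGFBP6, 29.7 for IGFBP7 and 14.7 for IGF2R. The mean was 14.3 for IGFBP3, 11.0 for IGFBP5, 3.66 for IGF1R and 0.447 for IGFBP2. At 4 days the replicates differed with gene length, so the order of genes of unlike length is less sure there. IGFBP4, IGFBP6 and IGFBP7 held the first 3 places at 2 days on either matrix and in the soft 4-day libraries. In the stiff 4-day libraries the mean FPKM of IGFBP3 was 30.8 ± 3.33 (SD, n = 2), above the 21.7 ± 3.39 of IGFBP7. IGFBP5, at 21.9 ± 8.58, could not be told from IGFBP7 there. At 2 days IGF2R stood above IGFBP3, and IGFBP3 above IGFBP5, by more than their spread on each matrix: 16.9 ± 1.15, 6.27 ± 0.327 and 3.15 ± 0.133 FPKM on the soft matrix. On the soft matrix at 4 days the means of IGFBP5, IGFBP3 and IGF2R were 15.5 ± 2.78, 13.8 ± 1.10 and 11.8 ± 2.34 FPKM, and neighbours in that order did not differ beyond their spread.

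**Figure D2:**
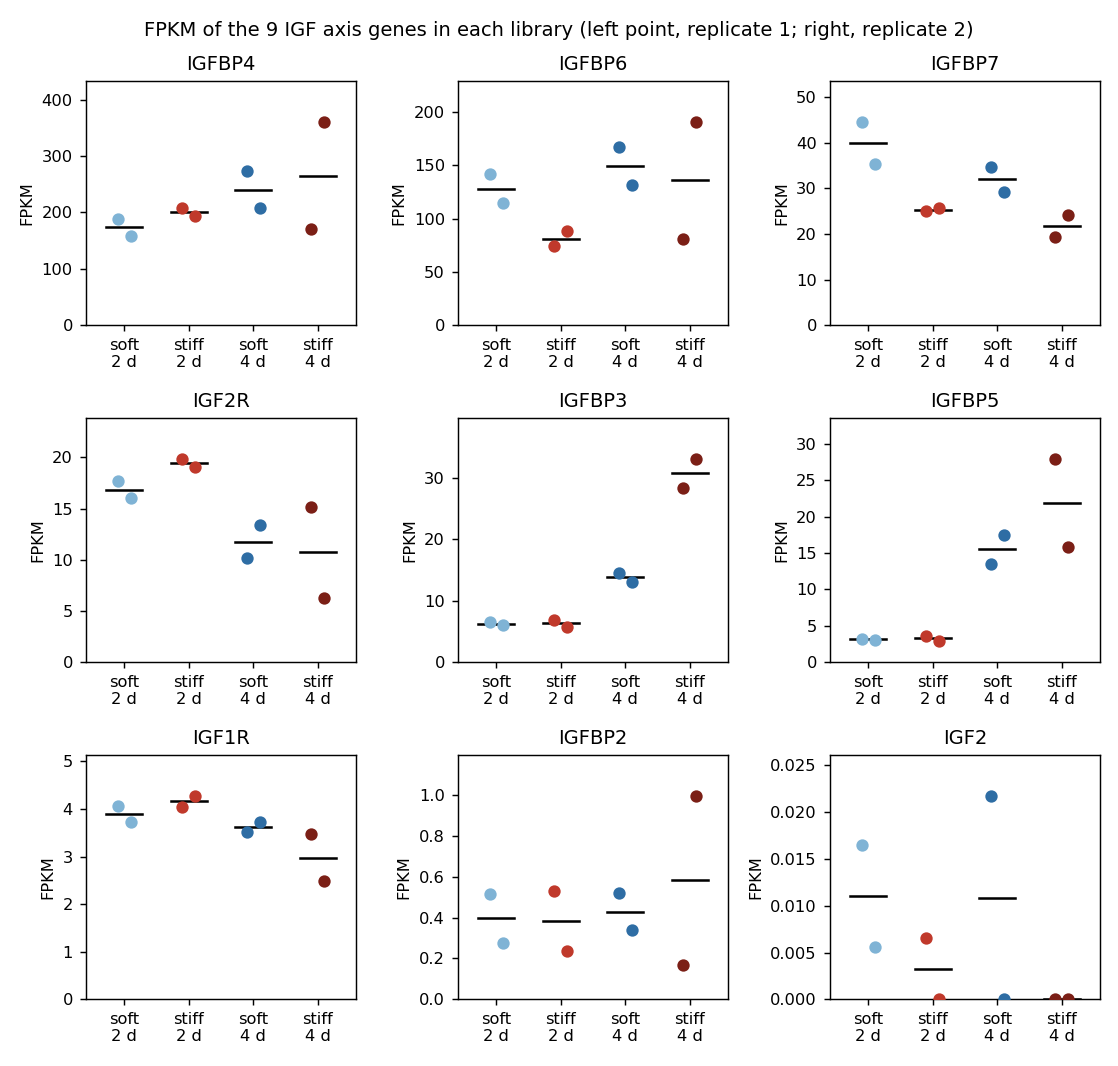
FPKM (y axis, linear from 0, a scale of its own in each panel) of the 9 genes in the soft and stiff libraries of 2 and 4 days (x axis). Each point is a library, replicate 1 on the left and replicate 2 on the right, and each line the mean of the pair. IGFBP3 and IGFBP5 are higher in every 4-day library than in any 2-day library, and IGFBP7 is lower on the stiff than on the soft matrix at each day. The share of all genes with such a gap over time is not given here.

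IGFBP3 is the main carrier of IGFs in blood and is also secreted by fibroblasts. It was at 17.1 and 15.9 CPM (counts relative to the library total, scaled by the TMM method) in the soft libraries of 2 days and at 18.1 and 15.3 CPM in the stiff ones. At 4 days it was at 38.7 and 35.1 CPM on the soft matrix and at 75.3 and 88.3 CPM on the stiff matrix. The libraries of the matrices overlapped at 2 days and lay apart at 4 days, and every 4-day library was above every 2-day library. The share of all genes that lay apart over time is not given here, so nothing particular to IGFBP3 is read from this.

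From 2 to 4 days IGFBP3 rose by 1.16 on the log2 scale on the soft matrix (SE 0.156, 2.23-fold, adjusted p = 0.00315, edgeR's quasi-likelihood test). Its log2 fold change over time on the stiff matrix was 2.29 (SE 0.160, 4.89-fold), which uses the known 4-day level and is a description. It was 2.40 without the first stiff library of 4 days and 2.16 without the second.

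The difference of IGFBP3 between the matrices was a log2 fold change of 0.02 at 2 days (SE 0.156). At 4 days it was 1.15 (SE 0.154, 2.22-fold higher on the stiff matrix). The 4-day value is one of those that chose the members and is given with no test. Without the first stiff library of 4 days it was 1.27 and without the second 1.04. The effect at 4 days minus that at 2 days was 1.13 (SE 0.218), which uses the same 4-day libraries and is likewise a description, and it lay between 1.01 and 1.26 with 1 library left out.

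IGFBP5 encodes a binding protein that attaches to extracellular matrix, where its affinity for IGFs falls. It was at 20.3 and 19.1 CPM in the soft libraries of 2 days and at 22.4 and 18.6 CPM in the stiff ones. At 4 days it was at 85.2 and 111.5 CPM on the soft matrix and at 175.6 and 99.9 CPM on the stiff matrix. It thus had the widest range of the tested members, 9.35-fold in FPKM between its highest and lowest library, with the matrices overlapping at each day.

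From 2 to 4 days IGFBP5 rose by 2.32 on the log2 scale on the soft matrix (SE 0.278, 4.99-fold, adjusted p = 0.00232) and by 2.75 on the stiff matrix (SE 0.283, 6.72-fold, adjusted p = 0.00177). The rise on the stiff matrix was 2.28 or 3.09 without the first or the second stiff library of 4 days. A fit of the stiff libraries alone left it at an adjusted p of 0.0513, and no gene was past the cutoff there. Between the matrices the log2 fold change was 0.06 at 2 days (SE 0.270) and 0.49 at 4 days (SE 0.264, 95% interval -0.12 to 1.10, adjusted p = 0.821). The latter was 0.03 without the first stiff library and 0.85 without the second.

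IGFBP4 encodes a binding protein that inhibits IGF action and is cut by PAPPA. It was the most abundant member in every library, at 424 and 355 CPM on the soft and 466 and 431 CPM on the stiff matrix at 2 days. At 4 days it was at 616 and 473 CPM on the soft matrix, and at 383 and 818 CPM on the stiff matrix, whose libraries enclosed the soft ones. None of its comparisons passed the test, with log2 fold changes of 0.20 (SE 0.322) and 0.14 between the matrices at 2 and 4 days and of 0.48 and 0.42 over time on the soft and stiff matrix. The value at 4 days was 0.60 without the first stiff library and -0.50 without the second. Over time on the stiff matrix IGFBP4 likewise had 0.87 without the first and -0.24 without the second. A fit of the soft libraries alone called its difference over time (adjusted p = 0.00458).

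IGFBP6 encodes a binding protein with a preference for IGF2. At 2 days it was at 137 and 111 CPM on the soft matrix and at 71.5 and 85.7 CPM on the stiff matrix, with no overlap. At 4 days it was at 163 and 129 CPM on the soft and at 78.7 and 187 CPM on the stiff matrix, where replicate 2 was 2.38-fold above replicate 1. The log2 fold change between the matrices was -0.66 at 2 days (SE 0.357, 95% interval -1.48 to 0.17) and -0.14 at 4 days. The 4-day value was 0.37 without the first stiff library and -0.88 without the second. Over time IGFBP6 had 0.23 on the soft and 0.76 on the stiff matrix (adjusted p = 0.650 and 0.150). The latter was 1.25 without the first stiff library of 4 days and -0.01 without the second.

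IGFBP7 encodes a secreted relative with low affinity for IGFs. It was at 58.9 and 46.5 CPM on the soft and 33.1 and 33.7 CPM on the stiff matrix at 2 days, and at 45.9 and 39.4 CPM on the soft and 25.6 and 32.1 CPM on the stiff matrix at 4 days. Each stiff library was below each soft library of its day. The log2 fold change was -0.66 at 2 days (SE 0.178, 95% interval -1.07 to -0.25, unadjusted p = 0.00627) and -0.56 at 4 days (SE 0.179, 95% interval -0.98 to -0.15, unadjusted p = 0.0140). After adjustment over all genes neither passed the test, with adjusted p of 0.9999 and 0.469. The 4-day log2 fold change was -0.40 without the first stiff library and -0.73 without the second. Over time the log2 fold change was -0.31 on the soft matrix (-0.47 to -0.12 with 1 library left out) and -0.21 on the stiff matrix, and neither passed. The latter was -0.06 without the first stiff library of 4 days and -0.39 without the second. IGFBP7 overlaps IGFBP7-AS1 and POLR2B on the opposite strand, and the strand setting of the counting is not given in the sources used here.

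The 2-day values of IGFBP6 and IGFBP7 depended on which libraries shared the estimate of the spread. In a fit of the 4 libraries of 2 days alone, IGFBP6 and IGFBP7 were past the cutoff with nearly the same log2 fold change of -0.67 (adjusted p = 2.81e-06 and 7.17e-06), among 667 genes. Neither gene was called at 2 days in the other 10 settings. With 1 library left out, the 2-day log2 fold change was -0.80 to -0.49 for IGFBP6 and -0.82 to -0.47 for IGFBP7.

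IGFBP2, which encodes a binding protein with an integrin-binding motif, was near the limit of detection. Its counts were 21 and 11 on the soft and 18 and 8 on the stiff matrix at 2 days, and 16 and 11 on the soft and 5 and 25 on the stiff matrix at 4 days. The conditions overlapped in each comparison. At this depth the interval of its log2 fold change between the matrices at 4 days was -1.41 to 2.21, so that neither a rise nor a fall could be detected.

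The makeup of the binding protein transcripts was computed per length, as the share of each gene in the summed FPKM of the 6 IGFBP genes. IGFBP4 held 49.0% to 65.4% and IGFBP6 23.2% to 36.7% of the sum in each of the 8 libraries. The share of IGFBP3 was 1.79% ± 0.149 and 2.00% ± 0.231 (SD, n = 2) on the soft and stiff matrix at 2 days, and 3.09% ± 0.267 and 6.99% ± 2.41 at 4 days. IGFBP5 held 0.901% ± 0.0841 and 1.04% ± 0.128 in the 2-day libraries, and 3.54% ± 1.20 and 5.54% ± 4.26 at 4 days. IGFBP7 went from 11.3% and 7.99% at 2 days to 7.11% and 4.87% at 4 days. The shares of IGFBP3 were thus above those of 2 days in every 4-day library, and so were those of IGFBP5, while the stiff libraries of 4 days differed from each other at 8.55% and 2.52% for IGFBP5. Shares of 1 sum are not independent of each other. The sum itself was 327 and 626 FPKM in the stiff libraries of 4 days. These differed from each other with gene length, so their shares carry that difference.

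**Figure D3:**
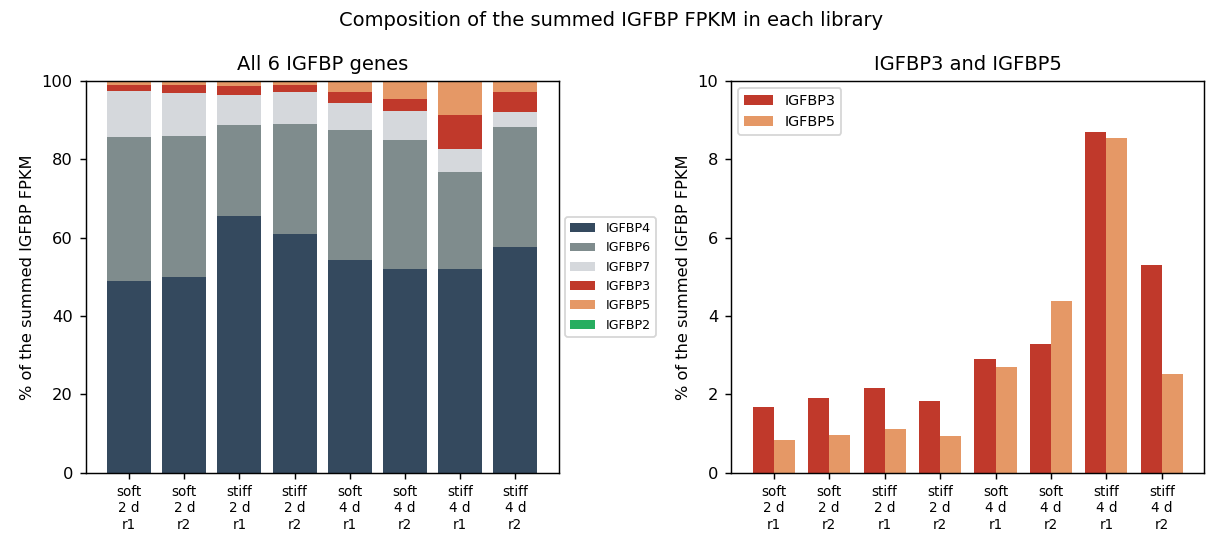
Share of each IGFBP gene in the summed IGFBP FPKM (y axis, percent) in each of the 8 libraries (x axis, r1 and r2 for the replicates), with all 6 genes stacked on the left and IGFBP3 and IGFBP5 side by side on the right. IGFBP4 and IGFBP6 make up most of each bar, IGFBP2 is too small to be seen, and the shares of IGFBP3 and IGFBP5 are larger in the 4-day libraries.

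Of the ligands, IGF2 was at or under the floor of 3 counts in every library. Its counts were 3 and 1 on the soft and 1 and 0 on the stiff matrix at 2 days, and 3 and 0 on the soft and 0 and 0 on the stiff matrix at 4 days. A count of 0 allows at most 0.106 to 0.173 CPM, depending on the library and for counting error only, so that no level could be compared between conditions. IGF2 shares its locus with INS-IGF2 on the same strand, which had no count in any library. IGF1 had at most 2 counts and INS none, and IGFBP1, a binding protein of hepatocytes, had at most 7.

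IGF1R, which encodes the signalling receptor, varied least of the tested members, 1.72-fold in FPKM between its highest and lowest library. It was at 49.9 and 45.4 CPM on the soft and 49.6 and 52.2 CPM on the stiff matrix at 2 days, and at 43.4 and 46.5 CPM on the soft and 42.7 and 30.9 CPM on the stiff matrix at 4 days. The stiff libraries lay below the soft ones at 4 days, with 1 of them close to the soft range. None of its comparisons passed the test, the nearest being the log2 fold change of -0.47 over time on the stiff matrix (SE 0.173, adjusted p = 0.0815). That value was -0.72 without the first stiff library of 4 days and -0.26 without the second. Between the matrices at 4 days it was -0.29, and it was -0.53 without the first stiff library and -0.06 without the second.

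IGF2R, which encodes the receptor that clears IGF2, was at 161 and 146 CPM on the soft and 181 and 173 CPM on the stiff matrix at 2 days. At 4 days it was at 92.7 and 125 CPM on the soft and at 139 and 58.2 CPM on the stiff matrix. Every 4-day library was below every 2-day library, where the share of all genes that lay apart over time is not given here. The log2 fold change over time was -0.50 on the soft matrix (adjusted p = 0.318, and 0.00148 in a fit of the soft libraries alone) and -0.84 on the stiff matrix (SE 0.352, adjusted p = 0.111, past the cutoff in 1 of 11 other settings). The latter was -1.61 without the first stiff library of 4 days and -0.36 without the second. Between the matrices at 4 days, IGF2R had a log2 fold change of -0.14. It was -0.89 without the first stiff library and 0.36 without the second. INSR, the related insulin receptor gene, was at 1.30 to 1.57 FPKM and no comparison called it.

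**Figure D4:**
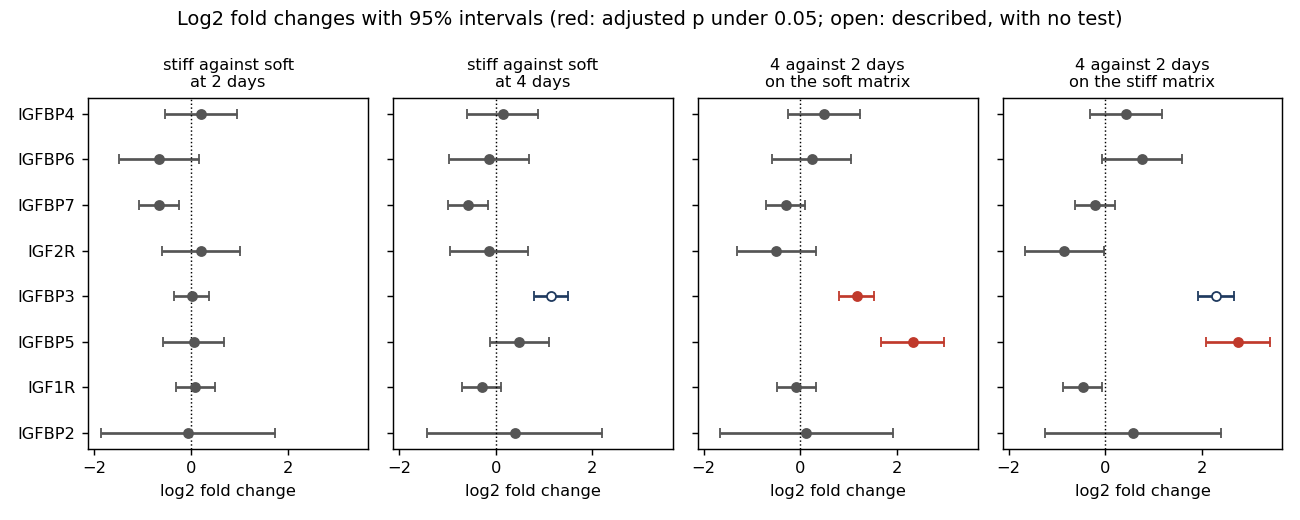
Log2 fold change of the 8 tested members (x axis) in the comparisons between matrices and over time, with points as estimates and bars as 95% intervals. Red marks an adjusted p under 0.05. Open circles are the values of IGFBP3 that use its stiff 4-day level and are descriptions, and their bars are not read as tests. The interval of IGFBP5 over time lies above 0 on each matrix, as does that of IGFBP3 on the soft matrix.

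The counts of members were read against those of all genes. At 2 days 0 of the 8 tested members passed the adjusted cutoff between the matrices, as did 0% of the tested genes, and 1 member (IGFBP7) had an unadjusted p under 0.05, against 2.82% of the genes. DESeq2 called 31 genes at 2 days and no member. The libraries of the matrices did not overlap in 4 of the 8 members at 2 days (IGFBP4 and IGF2R higher, IGFBP6 and IGFBP7 lower on the stiff matrix), against 48.2% of all genes. The 4-day value of IGFBP3 chose the list, so IGFBP3 is left out of the 4-day counts. No other member was called higher at 4 days, against 0.0343% of the genes, and 0 members lower, against 0.213%. IGFBP3 is likewise left out of the counts below that use the stiff 4-day libraries. Beside IGFBP3, an unadjusted p under 0.05 was found in 1 member (IGFBP7), against 6.93% of the genes, and no overlap in 2 (IGFBP7 and IGF1R), against 25.7%.

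For the effect at 4 days minus that at 2 days, 0 members and 0% of the genes were called, DESeq2 called 3 genes and no member, and no member other than IGFBP3 had an unadjusted p under 0.05, against 1.95% of the genes. Over time on the soft matrix 2 of the 8 members were higher (IGFBP3 and IGFBP5) and 0 lower, against 14.1% and 13.3% of the genes. On the stiff matrix, beside IGFBP3, 1 member was higher (IGFBP5) and 0 lower, against 14% and 13.7%. The comparisons over time share their libraries with those between the matrices. Without scaling factors the genes called over time were 1438 higher and 2130 lower on the soft matrix, against 2052 and 1933 with them, and 1305 and 2313 on the stiff matrix, against 2034 and 1990. On the soft matrix IGFBP3 and IGFBP5 were called higher under that setting too, and on the stiff matrix IGFBP5 was.

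Some marker genes moved over the same days. Of 10 tested stellate cell or myofibroblast genes 4 rose from 2 to 4 days on each matrix, namely THY1 (by 1.49 and 2.06 on the log2 scale on the soft and stiff matrix), VIM (1.12 and 0.96), ACTA2 (0.97 and 0.84) and SPARC (0.68 and 0.73), and 0 fell, where 14.1% and 14% of all tested genes rose and 13.3% and 13.7% fell. COL1A1 had log2 fold changes of -0.47 and -0.57, which did not pass the adjusted cutoff. Of the markers of other cells, SOX9 rose by 1.45 and 0.87 and PTPRC, at 0.0678 to 0.381 FPKM, by 2.06 and 1.56, while CSF1R, at 0.0848 to 0.474 FPKM, fell by 1.34 and 1.63. Between the matrices edgeR called none of the stellate genes at either day. An unadjusted p under 0.05 was found in 1 at 2 days and 4 at 4 days, beside 2.82% and 6.93% of all tested genes. Of the 4, COL3A1 (log2 fold change -1.58), COL1A2 (-0.70) and PDGFRB (-0.66) were lower on the stiff matrix, and TAGLN (0.78) was higher. The part of the marker shifts over time in the rise of IGFBP3 and IGFBP5 was not tested.

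Of 13 listed genes for proteases that cut IGFBPs or related secreted proteases, and for their inhibitors, 11 were tested. Between the matrices edgeR called 0 of them at either day. An unadjusted p under 0.05 was found in 2 at 2 days and 4 at 4 days, beside 2.82% and 6.93% of all tested genes. On the soft matrix 2 of the 11 were higher at 4 days and 2 lower, where 14.1% and 13.3% of all tested genes were. ADAMTS1, a secreted metalloprotease, rose by 1.26 on the log2 scale (adjusted p = 0.00165) and PRSS23, a secreted serine protease, by 0.55 (adjusted p = 0.0207). STC2, an inhibitor of PAPPA, fell by 0.61 (adjusted p = 0.0160), and ADAM12, a protease that cuts IGFBP3 and IGFBP5, fell by 0.99 (adjusted p = 0.00939). On the stiff matrix 2 were higher and 1 lower, where 14% and 13.7% of all tested genes were, namely ADAMTS1, which rose by 1.01 (adjusted p = 0.00281), PAPPA, and ADAM12, which fell by 1.07 (adjusted p = 0.00780). PAPPA itself was at 5.21 and 5.36 CPM on the soft and 4.83 and 4.36 CPM on the stiff matrix at 2 days, and at 7.47 and 8.66 CPM on the soft and 14.9 and 8.41 CPM on the stiff matrix at 4 days. Its rise over time on the stiff matrix was 1.35 (SE 0.272, adjusted p = 0.0113), with the 4-day stiff libraries 1 near the soft ones and 1 above them. The list's median log2 fold change was 0.13 on the soft and 0.16 on the stiff matrix, beside 0.02 and 0.03 over all genes.

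Of 45 listed genes of receptor signalling, 43 were tested and edgeR called 0 between the matrices at either day. An unadjusted p under 0.05 was found in 2 at 2 days and 3 at 4 days, beside 2.82% and 6.93% of all tested genes. The list's median log2 fold change was 0.09 at 2 days and -0.01 at 4 days, beside 0.01 and 0.02 over all genes. Over time 7 of the 43 were higher and 8 lower on the soft matrix, beside 14.1% and 13.3% of all tested genes. On the stiff matrix 6 were higher and 10 lower, beside 14% and 13.7%. The list's median log2 fold change over time was -0.16 on the soft and -0.13 on the stiff matrix, beside 0.02 and 0.03 over all genes. Among the larger changes on the soft matrix were those of INPPL1 (log2 fold change -1.21), a lipid phosphatase gene, of the GTPase gene NRAS (1.19) and of PDPK1 (-1.18), the kinase that activates AKT. On the stiff matrix the changes of largest size were those of INPPL1 (-1.23), TSC2 (-1.23), which restrains mTORC1, PDPK1 (-1.16) and SOCS2 (0.95), a feedback inhibitor of cytokine receptors.

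Likeness of pattern was measured as the root mean square difference of log2 CPM over the 8 libraries, each gene centred on its own mean. The genes most like IGFBP3 were MAB21L1 (0.187), SNAPC1 (0.216), KCNN4 (0.230), ACTG2 (0.233) and ADRA2A (0.243), where the median over all tested genes was 0.990. Those most like IGFBP5 were TLL1 (0.150), DCLK1 (0.191), FLRT2 (0.202), RNF144B (0.244) and GFRA1 (0.255), with a median of 1.31. IGFBP3 and IGFBP5 themselves were 0.546 apart, so that none of the 5 nearest genes of either was the other. These values describe 8 libraries of 4 conditions. Genes picked as nearest lie under the median by that choice, so nothing is read from the gap. The pattern of IGFBP3 includes the known stiff 4-day level. Condition means were low for MAB21L1, at 0.766 to 3.45 CPM, and for KCNN4, at 1.32 to 6.09 CPM.

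On GRCh37 (GENCODE v44lift37) the members that rose with time lie apart from each other, IGFBP3 at chr7:45951844-45961473 on the reverse strand and IGFBP5 at chr2:217536828-217560272 on the reverse strand. IGFBP2, at chr2:217497551-217529159 on the forward strand, is the neighbour of IGFBP5 and was near the limit of detection throughout. IGFBP5 overlaps DIRC3-AS1 on the opposite strand. IGFBP4 lies at chr17:38599702-38613977 and IGFBP6 at chr12:53491220-53496129, both on the forward strand, and IGFBP7 at chr4:57896939-57976551 on the reverse strand. IGF2 lies at chr11:2150342-2179621 on the reverse strand, IGF1R at chr15:99191768-99507759 and IGF2R at chr6:160390114-160534539, both on the forward strand.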

How the data were processed

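The members and gene lists were chosen with earlier results of these data known. Per the labels and the methods, the authors trimmed reads with Trim Galore, mapped them to hg19 with STAR 2.7.1a and counted them per gene with HTSeq. The submitters' processing notes also name bedtools 2.24.0 and DESeq2. The gene annotation and strand setting are not given in the sources used here, so genes on opposite strands of 1 locus may share reads. The deposited count table is not normalized. The deposited FPKM values were found to be scaled by size factors, and the gene lengths they imply were whole numbers within 0.01 in 100% of 20029 genes. The sources differ on the sequencer.

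Counts were analysed in R 4.3.3 with edgeR 4.0.16: genes were filtered by filterByExpr, scaled by TMM (factors 0.870 to 1.08) and fitted with a quasi-likelihood model of 4 conditions over all 8 libraries (prior degrees of freedom 3.86, common dispersion 0.0281), so that the pairs share 1 estimate of the spread. The cutoff was a p-value of 0.05 after Benjamini-Hochberg adjustment over all 14570 tested genes. A standard error is the log2 difference over the root of its F statistic. Log2 CPM used a prior count of 2. Totals were 19955975 to 27263935 counts, and floors of 3 counts cover counting error only. DESeq2 1.42.0, limma 3.58.1 on log2(FPKM + 1) or log2(FPKM + 0.1), other scaling and filters, fits of the compared libraries alone, a replicate block and leaving out each library were alternatives. On simulated data with 200 of 14570 genes changed by 2 on the log2 scale between the matrices at 4 days, edgeR recovered 183, with 13 false calls. This change is larger than the difference of any member between the matrices. The simulation also had no difference between replicates that depends on gene length, so it does not give the power for the members.

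Named genes were all members, 5 further genes of the axis (IGF1, IGFBP1, IGFALS, INSR and PAPPA), up to 4 called genes per list and comparison with the largest change, and the 5 genes most like IGFBP3 and IGFBP5, the other member with the widest range. INS, INS-IGF2 and the cell type markers were named outside that rule. A gene that the rule names in the signalling list is not reported here. IGFALS had 1 to 19 counts per library and was not called. Deviations of same-numbered libraries from their condition means correlated at -0.04 at 2 days and -0.49 at 4 days. Whether libraries were paired, by number or otherwise, was not tested. Every sample column was mapped, with 0 left over. Upstream sequences and motif shares came from RefSeq tables, with 7 of 9 members matched.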

Additional observations from a re-analysis of the deposited data

How the results depend on the processing

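Every comparison rests on 2 libraries per condition, and genes near 1 CPM carry large counting error. Over log2 fold changes of the members in all 5 comparisons, 404 values under other settings kept their direction and their side of the cutoff, while 3 changed sign, 5 newly passed the cutoff and 5 no longer did. These counts include the IGFBP3 values that are descriptions, and nothing is read from the side of the cutoff on which those fall. The values that no longer passed were of IGFBP5 over time on the stiff matrix and of IGFBP3, at 4 days and over time on the stiff matrix. The 4-day log2 fold change of IGFBP3 was 1.02 to 1.15 under these settings. With 1 library left out, 260 kept both, 29 changed sign, 25 newly passed and 6 no longer did. Without scaling factors, 3 values changed sign: IGFBP3 and IGFBP5 at 2 days were -0.049 and -0.0086, and IGFBP4 at 4 days was -0.0074. That setting moved the median of all genes to -0.10 over time on the stiff matrix. IGFBP3 and IGFBP5 over time were called in 11 of 11 settings on the soft matrix, and IGFBP5 in 10 of 11 on stiff. In fits of the compared libraries alone, 2 of 8 members were called at 2 days, beside 667 of 14290 tested genes. The fit over all libraries called 0 members and 0 genes there. Over time on the soft matrix 4 members were called beside 7261 genes, against 2 members and 3985 genes over all libraries. At 4 days 0 genes were called (36 over all libraries), and over time on the stiff matrix 0 (4024). DESeq2 called 31 genes at 2 days, 180 at 4 days and 3 for the change of the effect. Limma on log2(FPKM + 1) without a filter called 8, 20 and 11 genes there and 0 members at 4 days, and on log2(FPKM + 0.1) 1 gene for the change. With the replicate block, 14 genes and 0 members were called at 4 days, 2626 genes over time on the soft and 2543 on the stiff matrix. The crossed pairing, chosen after seeing the data, called 62 genes at 4 days. The cause of these shifts was not tested.

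Leaving out 1 library assumes that the lone library varies like the others. Genes called then ranged from 0 to 122 at 2 days, 0 to 4676 at 4 days, 0 to 3139 for the change, 347 to 7941 over time on the soft and 470 to 7826 on the stiff matrix. Counts of members called in these fits are not given, since those that use the stiff 4-day libraries would include IGFBP3. Log2 fold changes that changed sign ranged as follows. At 2 days they were -0.75 to 0.46 for IGFBP2, -0.11 to 0.14 for IGFBP3 and -0.080 to 0.19 for IGFBP5. At 4 days they were -1.31 to 1.22 for IGFBP2, -0.50 to 0.60 for IGFBP4, -0.88 to 0.37 for IGFBP6 and -0.89 to 0.36 for IGF2R. For the change of the effect they were -1.24 to 1.28 for IGFBP2, -0.69 to 0.40 for IGFBP4, -0.020 to 0.80 for IGFBP5, -0.22 to 1.03 for IGFBP6, -0.088 to 0.26 for IGFBP7 and -1.09 to 0.17 for IGF2R. Over time they were -0.25 to 0.64 for IGFBP2 on the soft one, and in stiff culture -1.14 to 1.39 for IGFBP2, -0.24 to 0.87 for IGFBP4 and -0.0066 to 1.25 for IGFBP6.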

Other observations

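Of 9 listed relatives that carry an IGFBP domain, 7 were tested, and edgeR called 0 between the matrices at either day. An unadjusted p under 0.05 was found in 1 at 2 days and 2 at 4 days, beside 2.82% and 6.93% of all tested genes. From 2 to 4 days 2 rose on the soft matrix, 3 rose on the stiff one and 0 fell, where 14.1% and 14% of all tested genes rose and 13.3% and 13.7% fell. ESM1, a secreted proteoglycan, was at 16.8 and 18.8 CPM on the soft and 15.3 and 14.2 CPM on the stiff matrix at 2 days, and at 51.9 and 46.1 CPM on the soft and 42.2 and 43.9 CPM on the stiff matrix at 4 days. It rose by 1.46 and 1.55 on the log2 scale on the soft and stiff matrix (adjusted p = 0.00143 and 0.00138). CTGF, a matricellular protein and a target of YAP, was at 228 and 217 CPM on the soft and 410 and 410 CPM on the stiff matrix at 4 days, after 140 to 209 CPM in the 2-day libraries. CTGF rose by 0.60 and 1.13 (adjusted p = 0.0222 and 0.00301), and its log2 fold change between the matrices at 4 days was 0.88 (adjusted p = 0.0945). CYR61, another matricellular protein, rose by 0.77 on the stiff matrix (adjusted p = 0.0111).

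Of 6 listed genes that bind IGF2 mRNA or neighbour the IGF2 locus, 3 were tested. IGF2BP2 was detected at 25.9 to 41.4 FPKM and IGF2BP3 at 3.61 to 6.95 FPKM, in cells with at most 3 IGF2 counts per library. IGF2BP1, at 10 to 31 counts per library, was called over time on the soft matrix, with a log2 fold change of 1.45 (SE 0.433, adjusted p = 0.0414).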
